A study of Homo sapiens with 30 samples.

Results

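The UGT1A glucuronosyltransferases described here are 6 genes of 1 locus, UGT1A1, UGT1A3, UGT1A6, UGT1A8, UGT1A9 and UGT1A10. They were taken by name from a deposited table of 60675 genes, which holds 7 other UGT1A rows. They were followed over 30 mRNA libraries of HT29, an established human colorectal adenocarcinoma line, made after 24 h of treatment. The vehicle group received 0.1% DMSO. The treated groups received a 70% ethanol extract of 1 of 4 Korean herbal formulas at 500, 100 or 20 µg/mL. There were 3 vehicle libraries, 3 at each dose of Bojungikgi-tang and of Sayeok-tang, 2 at each dose of Banhasasim-tang and 1 at each dose of Yijung-tang. All groups are cultures of 1 tumour line, and nothing in the labels says that replicates came from separate cultures. P-values therefore measure only the spread between these libraries, which may be technical.

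Glucuronosyltransferases are membrane enzymes of the endoplasmic reticulum. They transfer glucuronic acid from UDP-glucuronic acid to bilirubin, steroids, bile acids, drugs and plant phenols, and the water-soluble glucuronides are then pumped out of the cell. In the UGT1A locus each gene has a first exon and a promoter of its own, which give the part of the protein that binds the substrate, and all join the same later exons, which give the part that binds UDP-glucuronic acid. The intestine is known for UGT1A8 and UGT1A10, which the liver hardly makes, and the locus is a textbook target of the aryl hydrocarbon receptor (AhR), NRF2, PXR and CAR, the receptors and stress sensors of foreign compounds.

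On chromosome 2 (GRCh38, GENCODE release 29, plus strand) the annotated genes are nested and end together. UGT1A8 (ENSG00000242366) spans 233617645 to 233773310 and UGT1A10 (ENSG00000242515) spans 233636454 to 233773305. UGT1A9 (ENSG00000241119) begins at 233671853 and UGT1A6 (ENSG00000167165) at 233691607, and both end at 233773300. UGT1A3 (ENSG00000243135) begins at 233729108 and UGT1A1 (ENSG00000241635) at 233760248, and both end at 233773299. Exons 2 to 5 are common to all 6 transcripts, and the 1478 bases compared there were identical in every member. Shared exon 2, at 233767034 to 233767165, is 132 bases long, and shared exon 5, at 233772262 to 233773299, is 1038 bases long and holds the 3′ UTR. In transcripts of 2364 to 2479 bases, only the first exon, of 886 to 1000 bases, tells the genes apart.

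**Figure D1:**
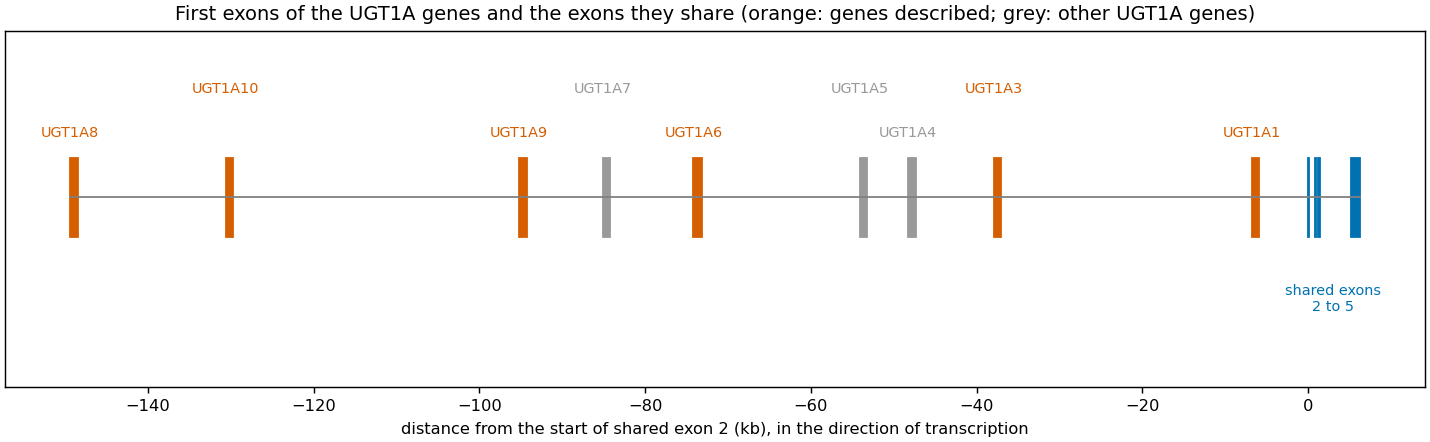
Map of the UGT1A locus drawn to scale; the horizontal axis is the distance in kb from the start of shared exon 2 in the direction of transcription. Orange bars are the first exons of the 6 genes described, grey bars those of the other protein-coding UGT1A genes, and blue bars the shared exons 2 to 5, so that every orange bar lies upstream of the same blue block.

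The first exons themselves fall into groups of very unequal likeness. The coding parts of exon 1 were 94.0% identical between UGT1A8 and UGT1A10, 93.3% between UGT1A8 and UGT1A9 and 92.0% between UGT1A9 and UGT1A10. All other pairs of members lay between 53.3% (UGT1A1 and UGT1A10) and 61.2% (UGT1A1 and UGT1A3). UGT1A3 has its near copies outside the 6 genes, in UGT1A4 (93.2%) and UGT1A5 (94.1%). The first 60 coding bases of exon 1, from the GENCODE transcripts, are printed because they show where a read can and cannot name its gene. In the first 3, capitals mark every position that is not the same in UGT1A8, UGT1A9 and UGT1A10; in the others, capitals mark the start codon.
UGT1A10: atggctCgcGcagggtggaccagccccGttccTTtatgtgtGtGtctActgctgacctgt
UGT1A8: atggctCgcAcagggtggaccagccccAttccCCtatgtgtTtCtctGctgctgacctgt
UGT1A9: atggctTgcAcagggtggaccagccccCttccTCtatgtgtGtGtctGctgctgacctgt
UGT1A6: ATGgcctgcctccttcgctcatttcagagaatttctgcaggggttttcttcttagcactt
UGT1A1: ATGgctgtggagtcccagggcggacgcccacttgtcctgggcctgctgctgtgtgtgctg
UGT1A3: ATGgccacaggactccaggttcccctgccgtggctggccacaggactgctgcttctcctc
After exon 1 every member continues with the same bases, of which the first 30 of exon 2 are gaatttgaagcctacattaatgcttctgga. Over all 855 coding bases of exon 1, UGT1A8 differed from UGT1A10 at 51 positions, 7 of them in the stretch printed, and UGT1A9 differed at 68, of which 5 are printed. Reads of 100 bases from the shared exons fit all 6 genes, and the deposited expected counts divide them by the quantifier's estimate. The value of a single gene therefore rests on that division, while the sum over all UGT1A rows does not.

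Because 4 of the members rose together with dose, the promoters of the members were searched for 3 short motifs in RefSeq windows (GRCh38.p14, 250 bases before to 50 after a transcription start). UGT1A1, UGT1A3, UGT1A6, UGT1A8 and UGT1A9 had entries, in 6 windows, and UGT1A10 had none. Searched on both strands were GCGTG, the core of the element bound by AhR, the 9-letter core TGACNNNGC of the antioxidant response element bound by NRF2 with small MAF proteins, and the palindromic consensus site of HNF1 factors. No match of one motif overlapped a match of another in the members' windows. GCGTG stood in 36.54% of all 35116 windows of this length, TGACNNNGC in 13.35% and the HNF1 site in 2 windows (0.01%). The stretches of the members that held a match are printed with the match in capitals, and positions count from the transcription start.
UGT1A8, chr2:233617577-233617641, GCGTG on the minus strand, position -26: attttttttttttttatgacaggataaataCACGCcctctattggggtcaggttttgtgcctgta
UGT1A9, chr2:233671803-233671867, GCGTG on the minus strand, position -65: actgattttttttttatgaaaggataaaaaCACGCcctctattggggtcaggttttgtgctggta
UGT1A6, chr2:233691472-233691536, GCGTG at position -200 of the upstream start: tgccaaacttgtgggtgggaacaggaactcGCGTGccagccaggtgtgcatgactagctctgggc
UGT1A6, chr2:233692762-233692830, antioxidant response core at position -98 of the downstream start: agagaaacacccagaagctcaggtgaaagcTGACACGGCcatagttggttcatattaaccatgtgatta
UGT1A3, chr2:233728948-233729020, HNF1 site at position -64: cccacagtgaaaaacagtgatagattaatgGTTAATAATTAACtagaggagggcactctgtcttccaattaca
The UGT1A3 window also held GCGTG at position 46. None of the 3 motifs stood in the window of UGT1A1. Sequence more than 250 bases before a start was not searched, so the windows cannot show whether motifs lie farther upstream. A match describes these letters only, and binding was not measured.

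Library depth, in units of 1000000 expected counts, ran from 36.274 (Sayeok-tang 500 µg/mL replicate 3) to 71.626 (vehicle replicate 2). All 10 colon epithelium markers checked reached 1 CPM (counts per 1000000 counts) in at least 1 library, with a summed level of 9960 to 13400 CPM per library. Of 12 markers of fibroblasts, endothelium, leukocytes and hepatocytes, 3 did so (CD14, PECAM1 and COL1A1), the summed level was 5.84 to 8.38 CPM and APOB was at 0 in every library. Some libraries stood apart: mitochondrial ribosomal RNA took 12.862% and 9.408% of the counts in the 2 libraries at 500 µg/mL of Banhasasim-tang against 0.914 to 1.914% elsewhere, and vehicle replicate 1 lay at -57.26 on the first principal component (12.19% of the variance) with the other 2 vehicle libraries at -18.45 and -11.22. Bojungikgi-tang 500 µg/mL replicate 2 lay at the other end, at 32.36, with its replicates at 3.92 and 2.09.

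UGT1A10 was the most abundant member in every library. Over the 30 libraries its level per kilobase of transcript had a median of 168 CPM per kb, followed by UGT1A8 at 30.7, UGT1A6 at 22, UGT1A1 at 20.2, UGT1A9 at 0.83 and UGT1A3 at 0.453 CPM per kb. UGT1A10 never overlapped the next gene, with a lowest library of 148 CPM per kb against a highest of 39.5 for UGT1A8. The neighbours UGT1A8, UGT1A6 and UGT1A1 did overlap over the libraries, with ranges of 26.5 to 39.5, 19.1 to 32.3 and 17.7 to 28.3 CPM per kb, as did UGT1A9 (0.592 to 1.23) and UGT1A3 (0.239 to 0.774). All 6 members passed the filter on low counts, UGT1A3 with 29 to 85 counts per library and UGT1A9 with 68 to 153, so these 2 were far less precisely measured than UGT1A10, with 15481 to 27060 counts.

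The split among the genes hardly moved with treatment. UGT1A10 took 67 to 69.9% of all UGT1A counts of a library, UGT1A8 took 11.6 to 13.4%, UGT1A6 took 8.55 to 10.4% and UGT1A1 took 7.32 to 9.75%. UGT1A9 (0.248 to 0.491%) and UGT1A3 (0.0988 to 0.264%) took the least, and the 6 genes together took 98.9 to 99.3%. Small shifts from the vehicle were seen for UGT1A1 and UGT1A6. UGT1A1, the enzyme that conjugates bilirubin, made up 8.9 to 9.38% in the vehicle libraries and less in all 9 libraries at 20 µg/mL, which ran from 7.59% (Sayeok-tang) to 8.48% (Banhasasim-tang). UGT1A6, which conjugates small planar phenols, made up 8.55 to 9.52% in the vehicle libraries and more in all 9 libraries at 500 µg/mL, which ran from 9.57% (Banhasasim-tang) to 10.4% (Sayeok-tang). Neither shift was particular to its dose. UGT1A1 was also below the vehicle range in the libraries at 100 and 500 µg/mL, except Banhasasim-tang 100 µg/mL replicate 3 (9.11%) and Bojungikgi-tang 500 µg/mL replicate 2 (9.75%). UGT1A6 reached 9.79% at 20 µg/mL, in Yijung-tang and Bojungikgi-tang, within its range at 500 µg/mL. These shares were not tested, and they rest on the quantifier's division of reads.

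**Figure D2:**
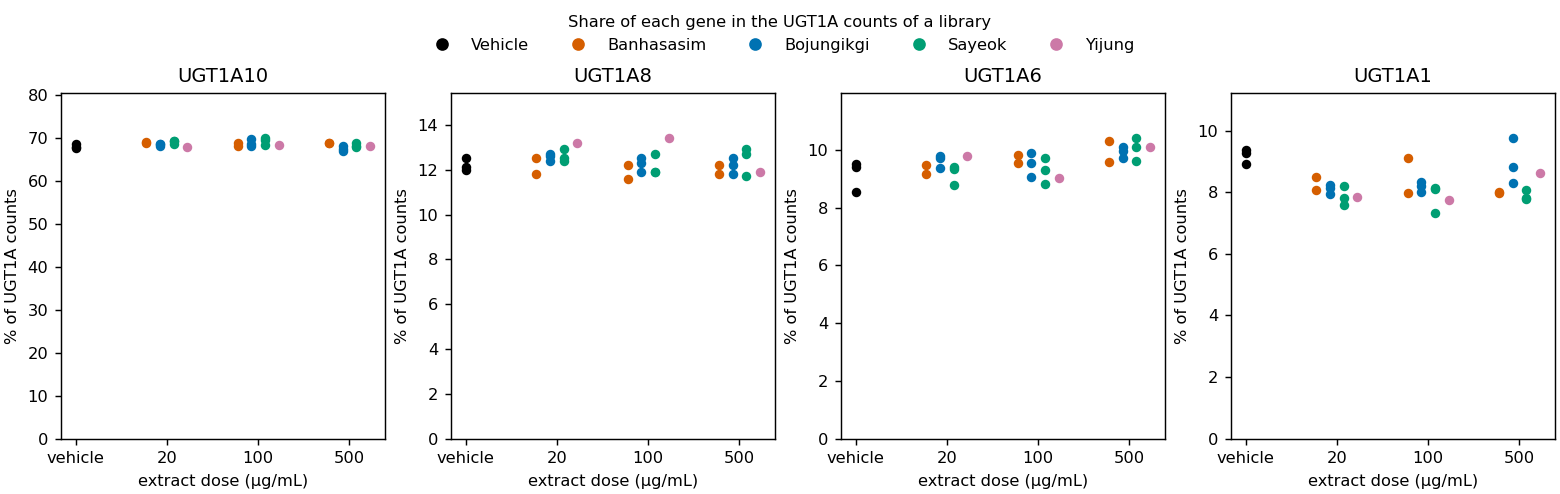
Share of each of the 4 abundant genes in the UGT1A counts of a library (percent, vertical axis) by extract dose (horizontal axis); each point is 1 library, coloured by extract. UGT1A10 stays between 67 and 69.9% in all libraries. UGT1A6 is above its vehicle range at 500 µg/mL, where it overlaps its libraries at 20 µg/mL. UGT1A1 is below its vehicle range at 20 µg/mL and in most libraries at the higher doses.

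The level of the whole locus was highest at 500 µg/mL of every extract. Summed over all UGT1A rows it was 537 ± 15.8 CPM in the vehicle group (SD, n = 3), on libraries scaled by TMM (trimmed mean of M values, an adjustment for library composition) as in all CPM given here. At 500 µg/mL it was 779 ± 1.04 for Banhasasim-tang (SD, n = 2), 680 ± 14.2 for Bojungikgi-tang (SD, n = 3), 727 ± 15.1 for Sayeok-tang (SD, n = 3) and 694 for the single Yijung-tang library. All 9 libraries at this dose, from 665 CPM upward, were above all 21 others, of which the highest was a Banhasasim-tang 100 µg/mL library at 636. The same separation of 9 from 21 libraries held for UGT1A10 (453 CPM or more against 434 or less), UGT1A6 (66.3 against 62.4) and UGT1A8 (81.1 against 79.3). UGT1A1 missed it, since its lowest library at 500 µg/mL (55.3, Bojungikgi-tang replicate 3) lay under a Banhasasim-tang 100 µg/mL library at 57.9. How many of all genes separate these libraries in the same way was not counted, so the separation only describes the levels.

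**Figure D3:**
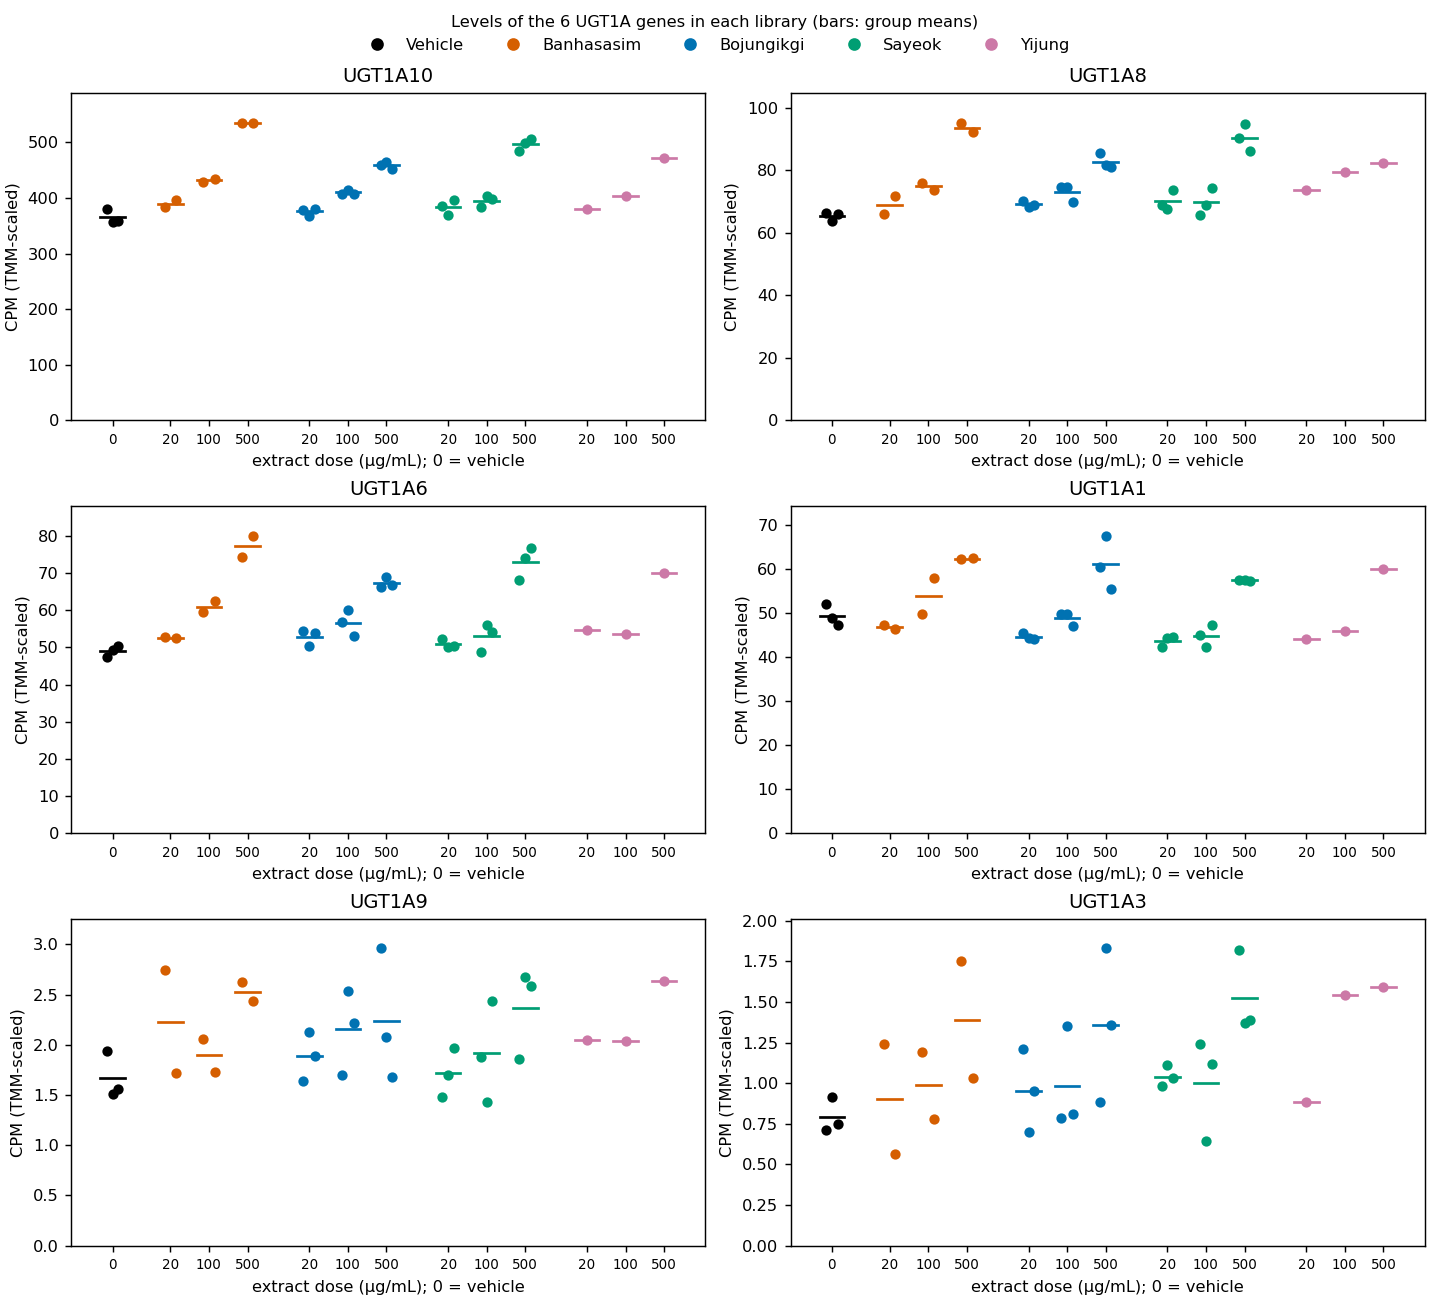
Level of each of the 6 genes (TMM-scaled CPM, vertical axis from 0, with a scale of its own per panel) by extract and dose in µg/mL (horizontal axis); points are libraries and horizontal bars group means. UGT1A10 at 500 µg/mL lies at 453 CPM or above and its other libraries at 434 or below, while UGT1A9 and UGT1A3, at under 3 CPM, scatter widely within groups.

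The first comparison set 500 against 20 µg/mL within each extract, and so used no vehicle library. UGT1A1, UGT1A6, UGT1A8 and UGT1A10 rose in all 3 replicated extracts, that is 4 of the 6 members each time, by 1.2 to 1.47-fold. Of all 18783 genes tested, 7.82% were called in Banhasasim-tang, 1.76% in Bojungikgi-tang and 3.18% in Sayeok-tang, and those called higher were 3.82%, 0.602% and 1.14%. The test is edgeR's quasi-likelihood test with Benjamini-Hochberg adjustment over all genes of a comparison, and "called" means an adjusted p under 0.05; fold changes, standard errors (SE) and adjusted p below come from it. The median log2 fold change of the members was 0.45, 0.32 and 0.43 in that order of extracts, while the median of all genes lay between -0.015 and 0.005 in the comparisons made here. In bulk libraries, a change in how many cells make a transcript and a change in transcript per cell cannot be told apart. Some colon epithelium markers were called as well. VIL1, which encodes villin of the brush border, fell from 20 to 500 µg/mL in all 3 extracts, at -0.25, -0.16 and -0.29 on the log2 scale (adjusted p 3.92e-04, 0.017 and 8.99e-06), and of the other markers only KRT20, a keratin of differentiated cells, was called, higher in Sayeok-tang (0.29, adjusted p 8.00e-04). Against the vehicle at 500 µg/mL, 3 of the 10 were called lower and 2 higher in Banhasasim-tang, 6 and 0 in Bojungikgi-tang and 6 and 1 in Sayeok-tang. At 20 µg/mL, where the UGT1A sum was not called, 4, 4 and 5 of the 10 were lower and 0 higher. Of all genes, 15.3%, 29.7% and 16.6% were called against the vehicle at 500 µg/mL and 12.7%, 18.3% and 18.9% at 20 µg/mL. The part of the markers in the UGT1A result was not tested.

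UGT1A10, the main intestinal member, stood at 535 CPM in both libraries at 500 µg/mL of Banhasasim-tang and at 383 and 396 CPM at 20 µg/mL. In Bojungikgi-tang its libraries read 460, 464 and 453 CPM at 500 µg/mL and 379, 368 and 381 at 20 µg/mL. In Sayeok-tang they read 484, 499 and 507 CPM at 500 µg/mL and 386, 369 and 397 at 20 µg/mL. The doses did not overlap in any extract, and the libraries of a group differed from each other far less than the doses did. For this and the members below, the share of all genes without overlap was not counted. Between groups of 2 libraries, lack of overlap says little. UGDH, which supplies the cosubstrate, did not overlap in Banhasasim-tang either and was not called there (adjusted p 0.441). The log2 fold changes of UGT1A10 were 0.46 (SE 0.05, adjusted p 1.43e-07), 0.29 (SE 0.04, adjusted p 4.86e-05) and 0.37 (SE 0.04, adjusted p 9.43e-07), in the order Banhasasim-tang, Bojungikgi-tang and Sayeok-tang.

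UGT1A8, its near copy in exon 1 and also an intestinal enzyme, read 95.1 and 92.1 CPM at 500 µg/mL of Banhasasim-tang against 65.9 and 71.9 at 20 µg/mL. For Bojungikgi-tang the values were 85.6, 81.6 and 81.1 CPM against 70.2, 68.1 and 68.8. Sayeok-tang gave 90.3, 94.8 and 86 CPM against 68.9, 67.5 and 73.8. No library at 20 µg/mL reached the lowest at 500 µg/mL, and UGT1A8 rose by 0.44 (SE 0.06, adjusted p 1.40e-05), 0.26 (SE 0.05, adjusted p 0.00322) and 0.37 (SE 0.05, adjusted p 3.13e-05) on the log2 scale.

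UGT1A6 had the largest fold change of the 4 called genes in Banhasasim-tang and Sayeok-tang, though its intervals overlapped those of the other 3. It read 74.4 and 80.1 CPM at 500 µg/mL of Banhasasim-tang and 52.9 and 52.4 at 20 µg/mL. Under Bojungikgi-tang it was at 66.3, 69 and 66.9 CPM and at 54.5, 50.4 and 53.9 CPM. Under Sayeok-tang it was at 68.1, 74 and 76.9 CPM and at 52.3, 50.2 and 50.3 CPM. Again the doses were apart in every extract, with log2 fold changes of 0.55 (SE 0.07, 95% interval 0.41 to 0.69, adjusted p 2.64e-06), 0.35 (SE 0.06, 0.24 to 0.46, adjusted p 4.43e-04) and 0.52 (SE 0.06, 0.4 to 0.63, adjusted p 1.72e-06).

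UGT1A1 was the member of the 4 with its largest fold change in Bojungikgi-tang, though no difference between extracts was called for it. That order rested on replicate 2 at 500 µg/mL of Bojungikgi-tang. Without it, Banhasasim-tang minus Bojungikgi-tang turned from -0.04 to 0.04 for UGT1A1 and Sayeok-tang minus Bojungikgi-tang from -0.06 to 0.02. The 3 libraries of Bojungikgi-tang were unequal for UGT1A1 at 500 µg/mL, at 60.3, 67.5 and 55.3 CPM, and close together at 20 µg/mL, at 45.4, 44.3 and 44.1. Banhasasim-tang gave 62.1 and 62.4 CPM at 500 µg/mL and 47.3 and 46.2 at 20 µg/mL, and Sayeok-tang gave 57.4, 57.5 and 57.3 CPM and 42.2, 44.2 and 44.6. All libraries at 500 µg/mL were above those at 20 µg/mL of the same extract. The log2 fold changes of UGT1A1 were 0.41 (SE 0.07, adjusted p 5.36e-04) in Banhasasim-tang, 0.45 (SE 0.06, adjusted p 5.20e-05) in Bojungikgi-tang and 0.39 (SE 0.06, adjusted p 2.20e-04) in Sayeok-tang.

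UGT1A9, known for bulky phenols in liver and kidney, and UGT1A3, a mainly hepatic enzyme that conjugates carboxylic acids, were not called in any extract between these doses. UGT1A9 read 2.62 and 2.44 CPM at 500 µg/mL of Banhasasim-tang and 2.74 and 1.72 at 20 µg/mL, and its groups overlapped in all 3 extracts. Its log2 fold changes were 0.21 (95% interval -0.34 to 0.75), 0.23 (-0.22 to 0.67) and 0.47 (0.01 to 0.93, adjusted p 0.342). UGT1A3 read 1.75 and 1.03 CPM against 1.24 and 0.566 in Banhasasim-tang, and 1.82, 1.37 and 1.39 against 0.983, 1.11 and 1.03 in Sayeok-tang, where the groups did not overlap. The log2 fold changes of UGT1A3 were 0.67 (-0.13 to 1.47), 0.54 (-0.1 to 1.18) and 0.55 (-0.09 to 1.18). All of these intervals hold changes as large as those of the 4 abundant genes, and all but that of UGT1A9 in Sayeok-tang also hold no change. Leaving out 1 library moved UGT1A3 to between 0.16 and 1.29 in Banhasasim-tang and to between 0.28 and 0.76 in Bojungikgi-tang.

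Summing all UGT1A rows before the test, which removes the division of reads, gave log2 fold changes of 0.46 (SE 0.047, adjusted p 1.23e-07) for Banhasasim-tang, 0.31 (SE 0.038, adjusted p 2.48e-05) for Bojungikgi-tang and 0.39 (SE 0.038, adjusted p 4.85e-07) for Sayeok-tang. Leaving out the mitochondrially encoded genes, whose share was high at 500 µg/mL of Banhasasim-tang, gave 0.46 for the sum and again 4 called members there. The Bojungikgi-tang result depended on pooling the spread over all groups: with only its own 6 libraries in the fit, UGT1A8 (0.25, adjusted p 0.0749) and UGT1A10 (0.28, adjusted p 0.0559) were no longer called, and the sum had a log2 fold change of 0.3 and an adjusted p of 0.0562.

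Between 100 and 20 µg/mL edgeR called 0 of the 6 members in each extract, against 0.0852% of all genes in Banhasasim-tang, 0.0106% in Bojungikgi-tang and 0% in Sayeok-tang. At an unadjusted p under 0.05 the counts were 3, 2 and 0, and DESeq2, a second count model, also called 0 in each. The sum was 629 ± 9.87 CPM at 100 µg/mL of Banhasasim-tang (SD, n = 2) against 566 ± 10.6 at 20 µg/mL, 597 ± 11.5 against 550 ± 10.5 in Bojungikgi-tang (SD, n = 3) and 571 ± 16.5 against 556 ± 17 in Sayeok-tang (SD, n = 3). Its log2 differences were 0.15 (95% interval 0.06 to 0.25), 0.12 (0.04 to 0.2) and 0.04 (-0.04 to 0.12), with adjusted p of 1 each. UGT1A10 at 100 µg/mL stood at 429 and 434 CPM for Banhasasim-tang and at 408, 415 and 408 for Bojungikgi-tang, above every library at 20 µg/mL of the same extract, whereas the Sayeok-tang libraries, at 384, 403 and 398 CPM, overlapped those at 20 µg/mL.

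Against the vehicle, UGT1A1, UGT1A6, UGT1A8 and UGT1A10 were higher at 500 µg/mL in all 3 extracts. The members called were 4 in Banhasasim-tang (15.3% of all genes called), 4 in Bojungikgi-tang (29.7%) and 5 in Sayeok-tang (16.6%), all higher, where 8.16%, 14.3% and 8.33% of all genes were called higher. These comparisons share the vehicle libraries with each other and the 500 µg/mL libraries with the comparisons by dose. The vehicle libraries also carry sample codes from a series of their own in the labels, and an effect of that series cannot be told apart from treatment. Banhasasim-tang and Yijung-tang share another code series, and Bojungikgi-tang and Sayeok-tang a further one. In comparisons of extracts across these, code series and extract cannot be told apart.

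In the vehicle libraries UGT1A10 stood at 380, 356 and 359 CPM, below every library at 500 µg/mL. Its log2 fold changes against them were 0.55 (SE 0.04, adjusted p 4.22e-10) for Banhasasim-tang, 0.33 (SE 0.04, adjusted p 3.86e-06) for Bojungikgi-tang and 0.44 (SE 0.04, adjusted p 4.87e-08) for Sayeok-tang. UGT1A8, at 66.4, 63.8 and 66 CPM in the vehicle, rose by 0.52, 0.34 and 0.47 on the log2 scale. UGT1A6, at 47.4, 49.3 and 50.5 CPM, rose by 0.65, 0.46 and 0.57. For both genes the vehicle lay below all libraries at 500 µg/mL.

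For UGT1A1 the log2 fold changes against the vehicle were below those against 20 µg/mL, and its vehicle libraries, at 52, 48.7 and 47.2 CPM, were above the 20 µg/mL libraries of Bojungikgi-tang and Sayeok-tang. The changes against the vehicle were 0.34 (SE 0.07, adjusted p 9.51e-04), 0.31 (SE 0.06, adjusted p 6.99e-04) and 0.22 (SE 0.06, adjusted p 0.0146). With only Bojungikgi-tang 500 µg/mL and the vehicle in the fit, UGT1A1 was not called there (adjusted p 0.0724). UGT1A3 was called higher in Sayeok-tang, at 1.82, 1.37 and 1.39 CPM against 0.713, 0.916 and 0.751 in the vehicle, with a log2 fold change of 0.92 (SE 0.31, adjusted p 0.0469). That call was lost whichever of the 6 libraries was left out, with log2 fold changes of 0.77 to 1.06 and adjusted p of 0.0679 to 0.154. UGT1A9 was called in none of the 3, at log2 fold changes of 0.62 (95% interval 0.11 to 1.12), 0.43 (-0.02 to 0.89) and 0.52 (0.06 to 0.98), from 1.94, 1.51 and 1.56 CPM in the vehicle. In Bojungikgi-tang single libraries at 500 µg/mL decided this: without replicate 3 UGT1A9 was called (0.62, adjusted p 0.0444), and without replicate 1 UGT1A3, not called with all libraries, was called (0.98, adjusted p 0.0254).

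For the sum of UGT1A rows the log2 fold changes against the vehicle were 0.54 (SE 0.042, adjusted p 6.99e-10), 0.34 (SE 0.038, adjusted p 2.54e-06) and 0.44 (SE 0.038, adjusted p 5.51e-08). Without vehicle replicate 1, the vehicle library that stood apart, they were 0.56, 0.36 and 0.46, and 4 members were called in each extract.

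**Figure D4:**
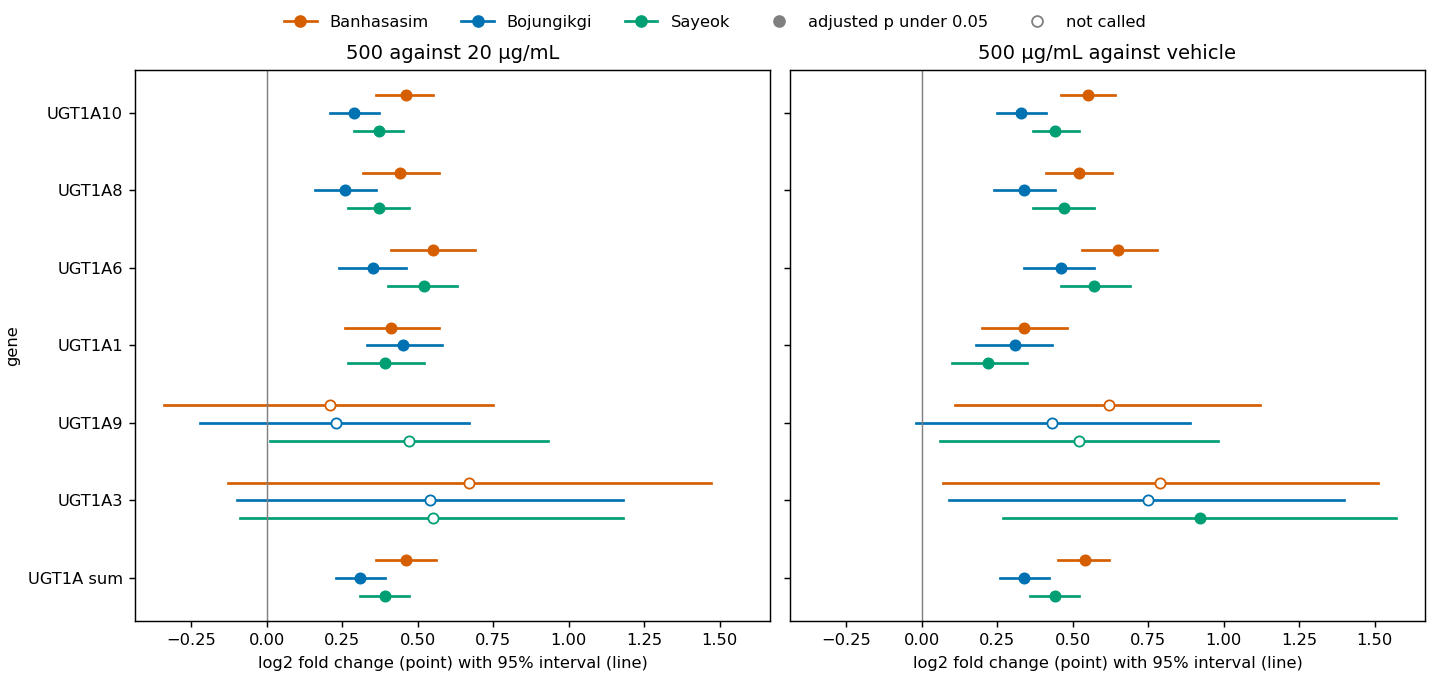
Log2 fold change (horizontal axis, points) with 95% interval (lines) of each gene and of the UGT1A sum (vertical axis) for 500 against 20 µg/mL (left) and 500 µg/mL against vehicle (right); colours are extracts and filled points were called at an adjusted p under 0.05. The 4 abundant genes are filled in every extract with values from 0.22 to 0.65, whereas the intervals of UGT1A9 and UGT1A3 are several times wider.

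At 20 µg/mL edgeR called 0 members against the vehicle in Banhasasim-tang (12.7% of all genes called), 0 in Bojungikgi-tang (18.3%) and 1, a lower one, in Sayeok-tang (18.9%, with 10.1% called lower). At an unadjusted p under 0.05 there was 1 in each extract, UGT1A10 in Banhasasim-tang and UGT1A1 in the other two. DESeq2 called 1 (UGT1A10), 0 and 2 (UGT1A1 and UGT1A10). UGT1A1 fell in Sayeok-tang by 0.17 on the log2 scale (SE 0.06, adjusted p 0.049), at 42.2, 44.2 and 44.6 CPM below all 3 vehicle libraries. In Bojungikgi-tang UGT1A1 was also below them, at -0.14 (SE 0.06, adjusted p 0.0973), and in Banhasasim-tang, at 47.3 and 46.2 CPM, it overlapped them, at -0.08 (SE 0.07, adjusted p 0.502). The shares of all genes called at this dose depended on single libraries: leaving out 1 gave 329 to 3491 genes in Banhasasim-tang (2379 with all), 844 to 4352 in Bojungikgi-tang (3440) and 990 to 4370 in Sayeok-tang (3555), the lowest without Banhasasim-tang 20 µg/mL replicate 3 in the first and without vehicle replicate 1 in the other two. The Sayeok-tang UGT1A1 call was lost in most settings, namely in 10, of 6 that left out 1 library and 7 others. Without vehicle replicate 1 its log2 fold change was -0.13 (adjusted p 0.25). The sum did not pass the test in any extract, at log2 differences of 0.08 (95% interval -0.01 to 0.16), 0.04 (-0.04 to 0.11) and 0.05 (-0.03 to 0.13).

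Whether the extracts differed in the change from 20 to 500 µg/mL was tested by interaction terms for the 3 pairs of replicated extracts. edgeR called 0 members in each pair, against 2.06% of all genes for Banhasasim-tang minus Bojungikgi-tang, 1.04% for Banhasasim-tang minus Sayeok-tang and 0.0266% for Sayeok-tang minus Bojungikgi-tang, and at an unadjusted p under 0.05 the counts were 3, 0 and 1. UGT1A10 gave the smallest p of the first pair, with a difference of 0.17 (95% interval 0.05 to 0.29, adjusted p 0.168) between log2 fold changes. DESeq2 called it there (0.17, adjusted p 0.0285), as its only member in the 3 pairs. For the sum the differences were 0.15 (0.03 to 0.28, adjusted p 0.215), 0.07 (-0.05 to 0.2, adjusted p 0.826) and 0.08 (-0.03 to 0.19, adjusted p 0.882). A larger change in Banhasasim-tang than in Bojungikgi-tang of up to 0.28 is therefore within the interval, and a p that misses the threshold does not show that the extracts acted alike.

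CYP1A1 and CYP1B1, classic AhR targets, and NQO1, a target of AhR and NRF2, were set beside the members as references. CYP1A1 was at 94.8 ± 7.35 CPM at 500 µg/mL of Banhasasim-tang (SD, n = 2), 2.81 ± 0.251 in Bojungikgi-tang and 1.24 ± 0.351 in Sayeok-tang (SD, n = 3 each), and at 0.441 ± 0.15 in the vehicle. Its log2 fold changes from 20 to 500 µg/mL were 6.11, 2.75 and 1.56. The CYP1A1 difference of 4.56 between Banhasasim-tang and Sayeok-tang (SE 0.36, adjusted p 5.01e-09) stands beside 0.08 for UGT1A10 (95% interval -0.04 to 0.21, adjusted p 0.767). Between Banhasasim-tang and Bojungikgi-tang it was 3.37 for CYP1A1 (SE 0.31, adjusted p 1.03e-07). UGT1A10 differed there by 0.17 (adjusted p 0.168 in edgeR and 0.0285 in DESeq2). CYP1B1 had log2 fold changes of 1.85, 0.64 and 0.15 from 20 to 500 µg/mL, the last not called (adjusted p 0.0655). NQO1 had log2 fold changes of 0.7, 0.24 and 0.47, and its difference between Banhasasim-tang and Bojungikgi-tang was called (0.46, SE 0.09, adjusted p 0.00648) while that between Banhasasim-tang and Sayeok-tang was not (0.23, SE 0.09, adjusted p 0.397).

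Yijung-tang had 1 library per dose and no test. UGT1A10 was at 472 CPM at 500 µg/mL (exact Poisson 95% interval 466 to 478, for counting error only), 404 (398 to 410) at 100 µg/mL and 380 (374 to 385) at 20 µg/mL, with the vehicle libraries at 356 to 380. UGT1A6 was at 70 CPM (67.7 to 72.4), 53.5 (51.3 to 55.7) and 54.8 (52.7 to 56.9) in the same order. UGT1A8 was at 82.4 CPM (79.8 to 85), 79.3 (76.7 to 82) and 73.7 (71.3 to 76.1), all above the vehicle range of 63.8 to 66.4. UGT1A1 was at 59.9 CPM (57.8 to 62.2) at 500 µg/mL, above the vehicle range of 47.2 to 52, and at 45.9 (43.9 to 47.9) and 44 (42.2 to 45.9) at the lower doses, below it, though the interval at 100 µg/mL reached into it. The counting interval of UGT1A9 at 500 µg/mL, 2.63 CPM (2.19 to 3.13), lay above the vehicle range of 1.51 to 1.94, and so did that of UGT1A3, 1.59 CPM (1.25 to 1.98), above 0.713 to 0.916. UGT1A3 was also above its vehicle range at 100 µg/mL, at 1.54 CPM (1.2 to 1.95), and within it at 20 µg/mL, at 0.885 (0.643 to 1.19). UGT1A9 was at 2.04 CPM (1.64 to 2.51) at 100 µg/mL and 2.05 (1.67 to 2.49) at 20 µg/mL, with intervals that reached into the vehicle range.

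The other UGT1A rows were scarce. UGT1A11P was at 0 in every library and UGT1A12P had at most 1 count. Of the 7 rows 5 were tested. UGT1A7, which acts in the upper digestive tract and is 92.6% identical to UGT1A10 in coding exon 1, was called higher from 20 to 500 µg/mL in Banhasasim-tang (0.67, SE 0.2, adjusted p 0.0423) and Sayeok-tang (0.7, SE 0.17, adjusted p 0.0183) and not in Bojungikgi-tang (0.45, SE 0.16, adjusted p 0.183). Against the vehicle UGT1A7 was not called in any extract at 500 µg/mL. The vehicle mean of UGT1A7, 3.2 ± 0.837 CPM (SD, n = 3), lay near its means at 500 µg/mL and above those at 20 µg/mL. At 500 and 20 µg/mL the means were 3.44 and 2.17 CPM in Banhasasim-tang, 3.3 and 2.42 in Bojungikgi-tang and 3.25 and 1.99 in Sayeok-tang. UGT1A4, which conjugates amines, was called higher in Banhasasim-tang at 500 µg/mL against the vehicle (0.7, SE 0.24, adjusted p 0.0438) and not against 20 µg/mL.

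Genes of the pathway outside the locus were read in the same comparison, 500 against 20 µg/mL. Of 13 genes of other UGT families 5 were tested, and none rose. In Banhasasim-tang 2 fell, UGT2B7, which conjugates steroids and opioids, by 0.78 (SE 0.24, adjusted p 0.0486), from 1.13 ± 0.12 to 0.653 ± 0.152 CPM (SD, n = 2 each), and UGT8, which makes galactosylceramide, by 0.29 (SE 0.06, adjusted p 0.00248). The list's median log2 fold change was -0.36 in Banhasasim-tang, -0.12 in Bojungikgi-tang and -0.3 in Sayeok-tang, where 0 of the 5 were called in the last 2.

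Genes that supply the cosubstrate were called in both directions. UGDH, which oxidises UDP-glucose to UDP-glucuronic acid, rose in Bojungikgi-tang (0.27, SE 0.05, adjusted p 0.00139) and Sayeok-tang (0.17, SE 0.05, adjusted p 0.041), and in Banhasasim-tang the value was 0.08 (SE 0.06, adjusted p 0.441). Against the vehicle, UGDH was called higher at 500 µg/mL in all 3 extracts. The log2 fold changes were 0.23 (adjusted p 0.00392) in Banhasasim-tang, 0.41 (adjusted p 3.86e-06) in Bojungikgi-tang and 0.3 (adjusted p 1.20e-04) in Sayeok-tang. SLC35D1, which carries UDP-glucuronic acid into the endoplasmic reticulum, fell from 20 to 500 µg/mL in all 3, by 0.56 (SE 0.08, adjusted p 1.29e-05), 0.23 (SE 0.06, adjusted p 0.0441) and 0.46 (SE 0.06, adjusted p 3.13e-05). SLC35D1 was at 32 ± 1.22 CPM at 20 µg/mL and 21.7 ± 1.3 at 500 µg/mL of Banhasasim-tang (SD, n = 2 each), with 27.1 ± 1.97 in the vehicle (SD, n = 3), so that the vehicle lay between the doses. In Bojungikgi-tang SLC35D1 was at 33.3 ± 0.912 CPM at 20 µg/mL and 28.3 ± 1.02 at 500 µg/mL (SD, n = 3 each), both means above that of the vehicle. Of the 7 genes of the list, all tested, 1 fell and 0 rose from 20 to 500 µg/mL in Banhasasim-tang. In each of the other extracts 1 rose and 1 fell.

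Of 5 transporters that export glucuronides, all tested, ABCC3, which acts on the blood side of the cell, rose in Banhasasim-tang (0.33, SE 0.06, adjusted p 6.64e-04) and ABCC4 fell there (-0.25, SE 0.08, adjusted p 0.0463). ABCG2, on the luminal side, rose in Bojungikgi-tang (0.2, SE 0.05, adjusted p 0.0221) and Sayeok-tang (0.26, SE 0.05, adjusted p 0.00149), and ABCC2, also luminal, rose in Sayeok-tang (0.87, SE 0.2, adjusted p 0.0133). Against the vehicle at 500 µg/mL, ABCC3 (0.46, 0.23 and 0.2) and ABCG2 (0.26, 0.47 and 0.55) were called higher in all 3 extracts. ABCC4 was not called there in Banhasasim-tang (-0.04) and was higher in Bojungikgi-tang (0.18, adjusted p 0.0337). The numbers called higher were 2, 5 and 3 of 5, where 8.16%, 14.3% and 8.33% of all genes were. Among 27 sulfotransferases, glutathione S-transferases and other conjugating enzymes, 19 were tested. Only SULT1A1, which sulfates phenols, was called, higher in Banhasasim-tang (0.27, SE 0.08, adjusted p 0.0458), and the medians of the list were 0.04, -0.09 and -0.01.

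Of 18 transcription factors and cofactors known to act on UGT1A promoters, 16 were tested. MAFF (0.36, SE 0.1, adjusted p 0.0182) and MAFG (0.34, SE 0.08, adjusted p 0.004), the small MAF partners of NRF2, rose in Banhasasim-tang between 20 and 500 µg/mL, and none of the 16 was called in Bojungikgi-tang or Sayeok-tang. Against the vehicle, 500 µg/mL gave 5 higher and 2 lower in Banhasasim-tang, 2 and 1 in Bojungikgi-tang and 1 and 1 in Sayeok-tang. MAFF was among those higher in Banhasasim-tang (0.3, SE 0.09, adjusted p 0.0185), whereas MAFG was not called there (0.12, SE 0.07, adjusted p 0.246). AHR, which encodes AhR, was higher in all 3, at 0.24 (SE 0.07, adjusted p 0.0283), 0.5 (SE 0.07, adjusted p 1.34e-05) and 0.34 (SE 0.07, adjusted p 0.00103). AHR stood at 110 ± 9.12 CPM in the vehicle (SD, n = 3) and was also called higher at 20 µg/mL of each extract. In Bojungikgi-tang PPARA, a lipid-sensing nuclear receptor, was higher (0.24, SE 0.07, adjusted p 0.0159) and NR1I2, which encodes PXR, lower (-1.32, SE 0.46, adjusted p 0.0341), the latter with overlapping groups. These are transcript levels and say nothing of the proteins' activity.

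Genes whose pattern was most like each member's were ranked by Pearson's r over the 13 group means of log2 CPM, among 10683 genes outside the locus. For UGT1A10 they were GCLC (0.986), ASPH (0.981) and GCLM (0.974), and for UGT1A6 they were GCLC (0.975), GCLM (0.966) and ASPH (0.965). GCLC and GCLM are the subunits of glutamate-cysteine ligase, the first enzyme of glutathione synthesis. GCLC was at 126 ± 2.09 CPM at 500 µg/mL of Banhasasim-tang (SD, n = 2), 104 ± 2.4 in Bojungikgi-tang, 110 ± 4.65 in Sayeok-tang and 75.8 ± 3.82 in the vehicle (SD, n = 3 each). UGT1A8 was most like RHOF (0.951), CNN3 (0.947) and GCLC (0.942), and UGT1A1 was most like AKR1B10 (0.957), an aldo-keto reductase, ETF1 (0.94) and TXNRD1 (0.937), the cytosolic thioredoxin reductase. AKR1B10 was at 114 ± 4.41 CPM in the vehicle (SD, n = 3) and at 93.9 ± 2.58 at 20 µg/mL and 190 ± 7.53 at 500 µg/mL of Banhasasim-tang (SD, n = 2 each), so that, as with UGT1A1, its lowest dose had the lowest mean.

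Over the 30 single libraries r was 0.963 for UGT1A10 and GCLC, 0.951 for UGT1A6 and GCLC and 0.898 for UGT1A1 and AKR1B10. For UGT1A8 it was 0.884 with RHOF and 0.929 with GCLC, so that GCLC led there. It was 0.426 for UGT1A3 and NDC1 and 0.369 for UGT1A9 and PIP5K1A, which led by group means at 0.94 and 0.919, so the patterns named for the 2 scarce members did not carry over to single libraries. Between the members r over the 30 libraries was 0.96 for UGT1A10 and UGT1A6, 0.94 for UGT1A10 and UGT1A8 and 0.84 for UGT1A10 and UGT1A1, and 0.42 to 0.58 for pairs with UGT1A3 or UGT1A9. All points share the libraries and their scaling, members also share divided reads, and the values are descriptions only.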

How the data were processed

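Per the labels' protocols, 1 µg of total RNA went into each library, the kit was MGI's directional mRNA kit, and reads were paired, of 100 bases. The authors deposited expected counts per gene, for which RSEM 1.3.3, STAR 2.7.3a and the build GRCh38 are named in the submitters' processing notes. The annotation and strand settings are not stated in these sources, and RSEM divides reads that fit several UGT1A genes. Of 270 columns, 240 were not used. Expected counts were rounded to whole numbers, which changed 25.48% of the nonzero values. The sample labels give 0.1% DMSO for the vehicle and the series text 2%; the sample labels were followed. Groups came from the treatment labels and replicate numbers from the titles.

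Genes were filtered by filterByExpr (minimum count 10), which left 18783, and scaled by TMM. The model, in edgeR 4.0.16 under R 4.3.3, gave each of the 13 groups a mean and had 17 residual degrees of freedom. The common dispersion was 0.00407, so small fold changes were called. The two-sided quasi-likelihood tests were adjusted by Benjamini-Hochberg over all genes of a comparison. SE was taken as the size of the log2 fold change over the root of its F statistic. The scripts were checked on simulated counts. DESeq2 1.42.0, RLE size factors, no filter, unrounded counts, a replicate block, fits without mitochondrial genes or with only the groups compared, and leaving out each library were tried.

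The members and lists were chosen with earlier results of these data known. All members are named; list genes are named by smallest p in Banhasasim-tang 500 against 20 µg/mL (4 per list, mean of at least 1 CPM in a group), and CYP1A1, CYP1B1 and NQO1 as references. ABCC4 and SULT1A1 are among these. Per kilobase levels use the GENCODE 29 transcript with the longest coding sequence. UGT1A11P, UGT1A12P, AHR, PPARA, NR1I2 and KRT20 were named after their values were seen.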

Additional observations from a re-analysis of the deposited data

How the results depend on the processing

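For the 500 against 20 µg/mL comparisons, 4 members were called in every setting tried except Bojungikgi-tang with only the groups compared (2; sum 0.3, adjusted p 0.0562), and leaving out 1 library gave 4 throughout. For 20 µg/mL against the vehicle, Banhasasim-tang had 1 with DESeq2. Sayeok-tang had 0 with RLE size factors, with no filter, without mitochondrially encoded genes and with only the groups compared, 2 with DESeq2 and 0 to 1 with a library left out. In Banhasasim-tang minus Bojungikgi-tang DESeq2 called 1 member and the sum (0.15, adjusted p 0.0456). Directions turned with a library left out for UGT1A9 from 20 to 500 µg/mL in Banhasasim-tang (-0.12 to 0.56) and Bojungikgi-tang (-0.04 to 0.4), for UGT1A8 (-0.06 to 0.03) and UGT1A1 (-0.01 to 0.08) from 20 to 100 µg/mL in Sayeok-tang, and for the differences between extracts of UGT1A1 (Banhasasim-tang minus Bojungikgi-tang, -0.1 to 0.04, and Sayeok-tang minus Bojungikgi-tang, -0.12 to 0.02) and UGT1A6 (Banhasasim-tang minus Sayeok-tang, -0.02 to 0.09). None of these was called, and the cause was not tested. With no filter on low counts all 6 members were called against the vehicle at 500 µg/mL, and leaving out 1 library moved UGT1A9 in Bojungikgi-tang between 0.18 and 0.62 and UGT1A3 between 0.5 and 0.98 there.

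The replicate block left 4 members called in each 500 against 20 µg/mL comparison, with sums of 0.46, 0.31 and 0.39, and lost the Sayeok-tang 20 µg/mL call (0 called). Same-number libraries deviated with correlations of -0.104 to 0.195, and no comparison had all of its pairs over 0.1. For Bojungikgi-tang 500 µg/mL against the vehicle 2 of 3 pairs were over it. In Banhasasim-tang 500 against 20 µg/mL, with 2 libraries per group, both pairs gave the same value (0.031). Such correlations cannot show whether libraries of the same number were paired. The sample codes in the labels also carry the replicate number.

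Counts over all genes moved more than those of the members: for 500 against 20 µg/mL from 636 to 1761 in Banhasasim-tang (1468 as reported), from 54 to 606 in Bojungikgi-tang (331) and from 386 to 764 in Sayeok-tang (597), and for 500 µg/mL against the vehicle from 648 to 3077 (2870), from 189 to 6054 (5580) and from 1264 to 3793 (3117). Without vehicle replicate 1, Bojungikgi-tang against the vehicle fell to 2822 and Sayeok-tang to 1437. At 20 µg/mL against the vehicle, fitting only the groups compared gave 38 in Banhasasim-tang (2379 as reported), 1985 in Bojungikgi-tang (3440) and 1537 in Sayeok-tang (3555). UGT1A3 and UGT1A9 had the fewest counts of the 6 members.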
